A study of Nothobranchius furzeri with 20 samples.

Results

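In the brain of the turquoise killifish, 200 genes were chosen as higher in each of 13 libraries than in any of the other 7. This split parted libraries of the same age and treatment as well as libraries of different groups. The set is built around Nfu_g_1_020841. A library was called high when this gene stood above 30 CPM, counts scaled to the library total, and low otherwise, which gave 13 high and 7 low libraries of 20. Members are genes with a mean of at least 1 CPM whose lowest CPM in the high libraries exceeded their highest CPM in the low ones. Of 26739 genes in the count table, 17835 reached the mean of 1 CPM and 770 of these lay above in every high library, 4.32%. The 200 with the largest difference between the means of the 2 classes on the scale L, log2(CPM + 1), are the members. The members were thus chosen by the CPM values themselves, and the difference between high and low libraries is described here without a test.

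The turquoise killifish (Nothobranchius furzeri) is an annual fish with a short natural lifespan, kept for the study of ageing. All fish were males of strain MZM-04/10p, a line founded from wild-caught animals. The 4 groups of 5 libraries were DMSO at 9 weeks, Rotenone 1% LC50 at 9 weeks, DMSO at 27 weeks and Rotenone 1% LC50 at 27 weeks. Rotenone blocks complex I of the mitochondrial respiratory chain, the entry point of electrons from NADH, and was given at 1% of the LC50, the concentration lethal to the median animal; DMSO is its solvent. The labels give neither the route nor the length of exposure. They also do not say that every library is its own fish, and p-values cover the spread among these libraries alone. RNA of a whole organ averages over all its cells, so a change in the number of cells of a type and a change in RNA per cell cannot be told apart in any value below. A group of genes that is high together in some libraries of bulk tissue can be read only as a shared pattern of levels.

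Libraries held 19433958 to 24159773 counts. Genes carry Nfu_g_1 identifiers that the files do not pair with names, and a RefSeq gene table of assembly NfurGRZ-RIMD1 held 0 of them. Members are therefore described by their values, the function of none is given, and brain markers could not be checked. Nfu_g_1_020841, for which the set is named, has a recovered length of 3193 bases.

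Nfu_g_1_020841 was present in every library at one of 2 separate levels. In the DMSO libraries of 9 weeks it stood at 158, 6.76, 7.84, 4.89 and 77.7 CPM in replicates 1 to 5. In the rotenone libraries of 9 weeks it stood at 6.58, 104.9, 7.62, 55.7 and 126 CPM. At 27 weeks it stood at 10.04, 206, 116, 8.41 and 136 CPM in DMSO. Both treatments at 9 weeks and DMSO at 27 weeks thus each held libraries of both levels, with high libraries in 2 of 5, 3 of 5 and 3 of 5. In rotenone at 27 weeks it stood at 244, 123, 196, 166 and 129 CPM, and all 5 libraries were high. Between the highest low library (10.04 CPM) and the lowest high library (55.7 CPM) no library lay, so limits of 20 or 50 CPM gave the same 13 libraries.

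**Figure D1:**
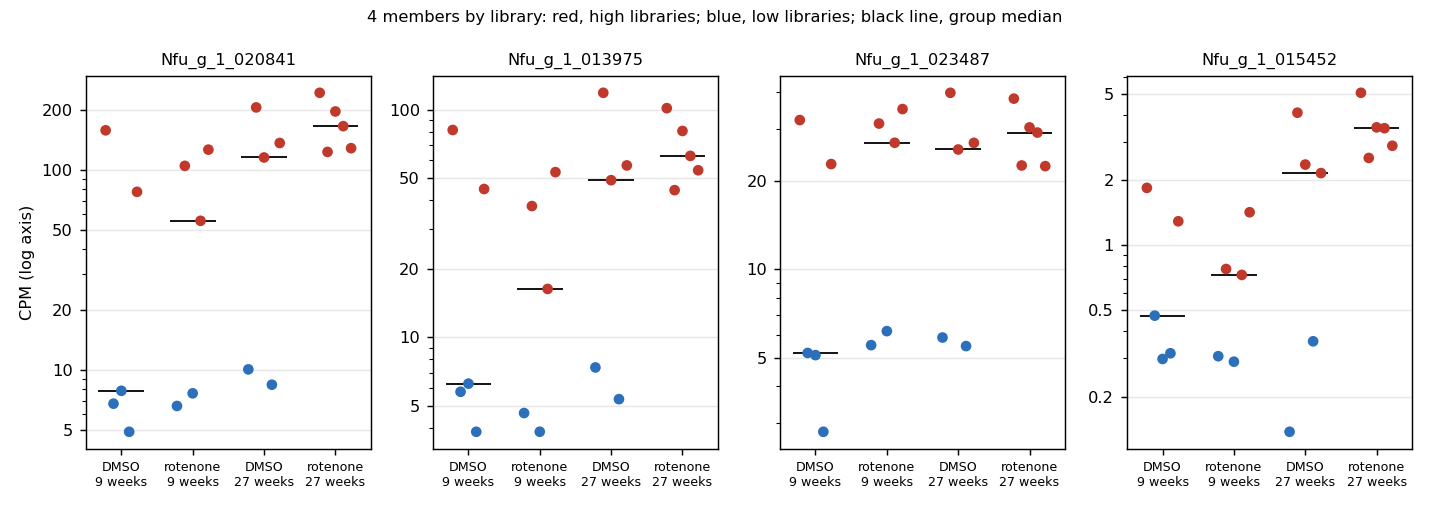
Levels of 4 members in CPM (log axis) in each of the 20 libraries, by group, with replicates 1 to 5 from left to right; red points are high libraries, blue points low ones, and black lines group medians. In each panel every red point lies above every blue point, and the rotenone libraries of 27 weeks are all red.

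Members were raised in the high libraries by a median of 4.18-fold, from 2.52-fold to 39.4-fold (ratio of mean CPM). Of the 200, 112 were raised over 4-fold and 26 over 8-fold. On the scale L the difference of class means ran from 1.28 to 4.001 with a median of 1.67, where over all 17835 genes of at least 1 CPM the median was -0.03. Few members were silent in the low libraries. Their mean CPM there had a median of 3.66, only 19 of 200 were below 1 CPM in all 7 low libraries, and 0 lacked a count in any of them. As chosen here, the set is thus a rise from a measurable base rather than a switch from none. The scale L adds 1 to each CPM and so lessens differences of genes near 0 CPM. The ranking therefore favoured members with a measurable base. Nfu_g_1_020841 itself had the largest difference and Nfu_g_1_013975 the next, 3.20.

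Levels of Nfu_g_1_013975 at 9 weeks were 81.6, 5.77, 6.26, 3.85 and 44.9 CPM in DMSO and 4.65, 37.8, 3.85, 16.3 and 53.3 CPM in rotenone. At 27 weeks its levels were 7.38, 119, 49.11, 5.35 and 57.03 CPM in DMSO and 102, 44.4, 80.8, 62.8 and 54.3 CPM in rotenone. Low libraries spanned 3.85 to 7.38 CPM and high ones 16.3 to 119 CPM. The widest empty interval on L after that of Nfu_g_1_020841 (2.36) belonged to Nfu_g_1_023487 (1.71), which stood at 2.81 to 6.17 CPM in the low libraries, with a median of 5.49, and at 22.4 to 39.8 CPM in the high ones, with a median of 29.2. Nfu_g_1_023487 thus varied less among the high libraries than Nfu_g_1_013975 did. The interval exceeded 1 for 23 members and was under 0.1 for 16.

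The limit of 200 cut a continuous series. The last member, Nfu_g_1_009665, had a difference of 1.28 on L, and stood at 12.4 to 16.2 CPM in the low and 26.9 to 47.9 CPM in the high libraries. The first gene left out, Nfu_g_1_011520, also had a difference of 1.28, with 0.779 to 1.799 CPM in the low and 2.23 to 7.04 CPM in the high libraries. The other separated genes, 570 in all, had differences of 0.16 to 1.28. A further 39 genes had a difference as large as that of the last member but overlapped between the classes. In the opposite direction the classes were parted by 19 genes, 0.107% of those of at least 1 CPM, and by little: their differences lay between -0.33 and -0.13.

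**Figure D2:**
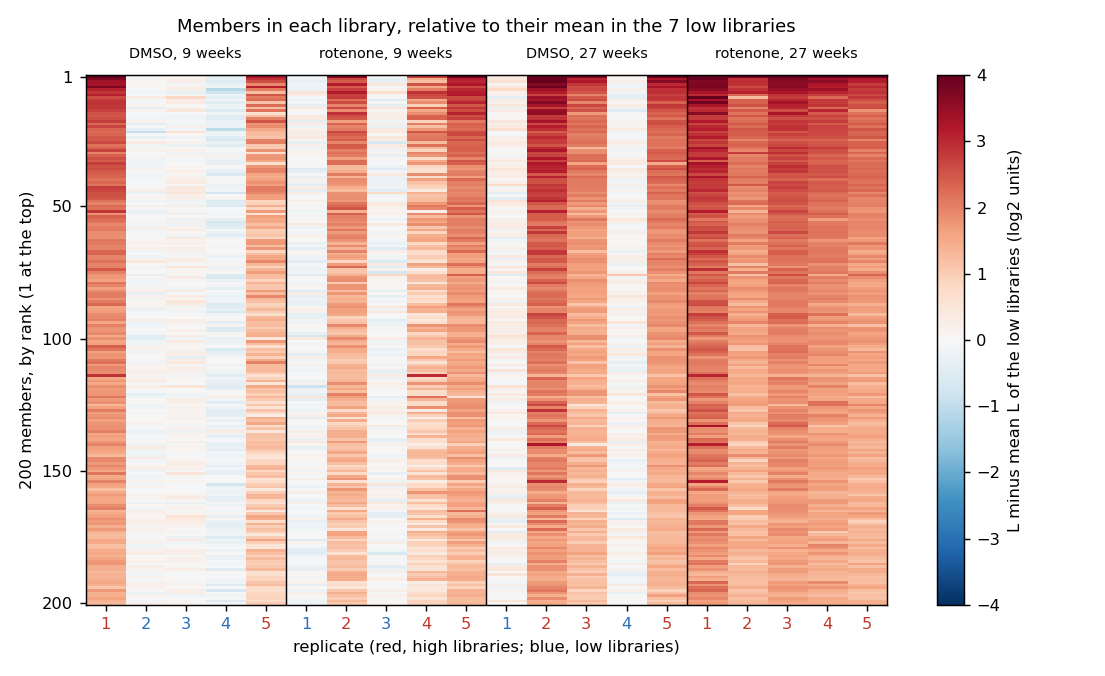
Level of each of the 200 members (rows, by rank) in each of the 20 libraries (columns, by group and replicate), as L minus the mean L of that member in the 7 low libraries. Low libraries lie around 0 because their mean was subtracted, and the high libraries differ among themselves in strength. Rotenone replicate 1 and DMSO replicate 2 of 27 weeks are the darkest.

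Members were genes of moderate level and ordinary length. Their mean CPM had a median of 12.4, against 20.6 for all genes of at least 1 CPM. Lengths, recovered from the ratio of counts to the deposited RPKM, had a median of 3009.5 bases (318 to 15654), against 2786 for all such genes. Per length, the median level was 4.57 RPKM for members and 8.38 RPKM for all. The most abundant member, Nfu_g_1_005157, stood at 142 to 267 CPM in the low libraries and at 380 to 750 CPM in the high ones. No 2 members had consecutive identifier numbers. What the numbering follows is not said in the files, and the number of such pairs expected by chance was not computed.

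Among the high libraries, whose values also entered the rule, the members formed a gradient. As the median over members of L minus its mean in the low libraries, expressed as a fold on the CPM + 1 scale, rotenone replicate 1 of 27 weeks stood at 4.79, DMSO replicate 2 of 27 weeks at 4.57 and rotenone replicate 3 of 27 weeks at 4.13. At the weak end stood DMSO replicate 5 of 9 weeks at 2.31 and rotenone replicate 4 of 9 weeks at 2.17. The other 8 high libraries lay between 2.77 and 3.68, and the 7 low libraries between 0.873 and 1.11. High libraries were therefore not equal, and the weakest were both of 9 weeks, although DMSO replicate 1 of 9 weeks (3.68) was above 5 of the 8 high libraries of 27 weeks.

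The order was much the same from member to member. In 176 of 200 members, 88.0%, the highest of the 13 libraries was rotenone replicate 1 or DMSO replicate 2 of 27 weeks, whereas these were highest for 58.4% of the 570 separated genes outside the set and for 17.7% of all genes of at least 1 CPM. In 185 members, 92.5%, the lowest was rotenone replicate 4 or DMSO replicate 5 of 9 weeks, against 61.8% of the separated genes outside the set and 26.7% of all genes. At each end, counted separately, most separated genes outside the set thus had the same libraries. How many had them at both ends was not computed, and whether their shares differ from those of the members was not tested. Of the 78 pairs of high libraries, the median of the other members ordered 85.9% as Nfu_g_1_020841 did, against 50% for all genes and 73.1% for the 570 separated genes outside the set. An order shared in over 80% of pairs was found in 143 members and in 3.51% of all genes. These shares are descriptions, since genes are not replicates. The rule required a member to exceed all low libraries even in the weakest high library, so the low end of the order is not free of it.

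Within the high libraries 1 axis of variation, the first principal component of L, held 72.5% of the members' variance, against 32.6% for all genes of at least 1 CPM. These libraries also chose the members, and how far the choice raised the share was not tested. Among the 7 low libraries the first axis held 38.4% for members and 43.2% for all genes, so the common order was not seen there to the same degree. Pairs of low libraries were ordered as in Nfu_g_1_020841 in a median of 66.7% of cases by the members and 52.4% by all genes. DMSO replicate 4 of 9 weeks, the lowest library for Nfu_g_1_020841, was the lowest of the 7 for 85 members, and for 15.1% of all genes.

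The members did not all keep the same proportions among the high libraries. A second axis held 13% of their variance there. Which libraries it set apart, and its share over all genes, were not computed. Between DMSO replicate 5 and rotenone replicate 4 of 9 weeks, both weak, 115 members were higher in the former and 85 in the latter. The difference exceeded 1 on L for 21 members in favour of the DMSO library and for 13 in favour of the rotenone library, 34 of 200, where 2.6% of all genes of at least 1 CPM differed by as much. The pattern was found by looking at the values and was not tested.

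Nfu_g_1_010600, chosen after its values were seen as the member leaning most to DMSO replicate 5, stood there at 7.78 CPM and in rotenone replicate 4 at 1.801 CPM. In the 3 high rotenone libraries of 9 weeks it stood at 3.93, 1.801 and 7.48 CPM, and in high libraries of 27 weeks at 7.29 to 16.3 CPM. In the other high libraries of 9 weeks, not used to pick them, the 21 members of this kind had a median L, relative to their own mean over all 13 high libraries, of -0.64 in rotenone replicate 2, -0.27 in rotenone replicate 5 and 0.35 in DMSO replicate 1. In the 13 members of the other kind these medians were 0.19, 0.25 and 0.03, and over all members -0.20, 0.01 and 0.15. At 27 weeks the 21 members had medians of 0.73, -0.17, 0.49, 0.26 and 0.02 in rotenone replicates 1 to 5. In DMSO replicates 2, 3 and 5 of that age their medians were 0.71, -0.12 and 0.07, so the treatments overlapped there. The mean over the 13 high libraries includes the 2 that picked the members, 1 of each treatment, so these are descriptions. Whether members of either kind lean to a treatment was not tested.

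Nfu_g_1_016549, chosen likewise as the member leaning most to rotenone replicate 4, had a further step among the high libraries. It stood at 5.34 to 10.1 CPM in the low libraries and at 12.98 to 22.6 CPM in 10 of the high ones. In DMSO replicate 1 and rotenone replicate 4 of 9 weeks and rotenone replicate 1 of 27 weeks it stood at 64.6, 68.5 and 71.3 CPM. A further step of over 1 on L among the high libraries, with at least 2 libraries on each side, was found in 1 other member, Nfu_g_1_004185, named for that reason: it stood at 23.5 and 25.7 CPM in rotenone replicate 1 and DMSO replicate 2 of 27 weeks and at 2.49 to 10.2 CPM in the other 11. Single members could thus follow the set in the low and high classes and depart from it within the high class.

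**Figure D3:**
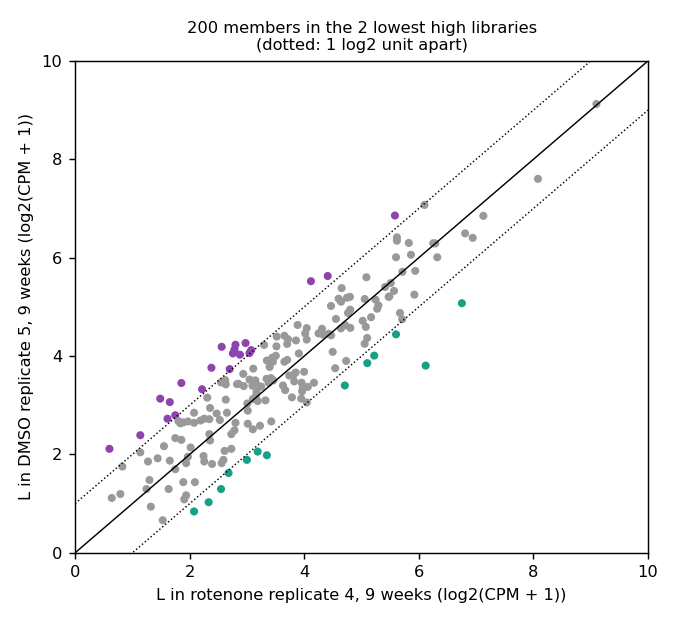
L of the 200 members in rotenone replicate 4 (x axis) and DMSO replicate 5 (y axis) of 9 weeks, the weakest of the 13 high libraries; the solid line marks equal levels and dotted lines a difference of 1. In purple are the 21 members above the upper line and in green the 13 below the lower one.

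A measure of the whole library moved with the classes. The 100 most abundant genes of each library held 14.1% to 15.3% of its counts in the low libraries and 12.9% to 14.05% in the high ones. The classes did not overlap, but the gap was narrow, 14.09% against 14.05%. Rotenone replicate 1 of 27 weeks, the strongest high library in members, stood at 12.86%. DMSO replicate 5 of 9 weeks, among the weakest, stood at 13.03%. The members together held 0.136% to 0.183% of counts in the low and 0.437% to 0.869% in the high libraries. Total counts did not part the classes (21155551 to 24159773 in low, 19433958 to 24045080 in high), nor did the number of genes with a count (21375 to 21600 in low, 21483 to 21669 in high). The part of library composition in the members' pattern was not tested.

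**Figure D4:**
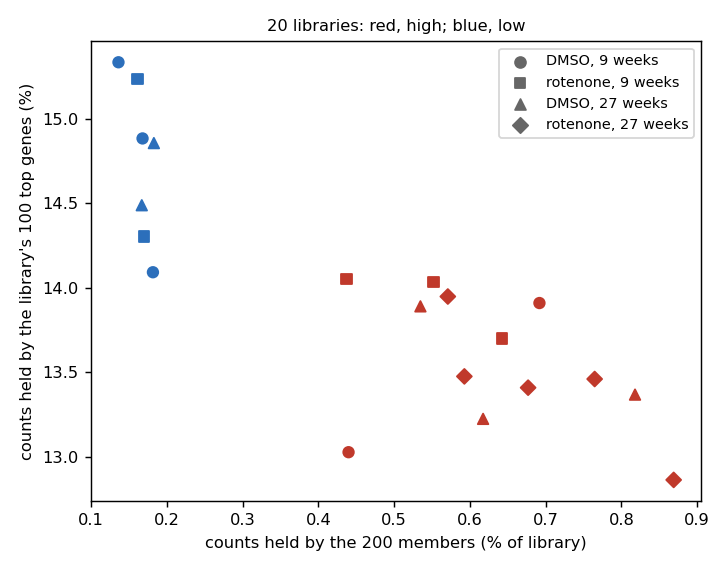
Percent of counts held by the library's 100 most abundant genes (y axis) against percent held by the 200 members (x axis) in 20 libraries; red, high; blue, low; marker shapes give the groups. Low libraries lie at 14.1% or more on the y axis, high ones at 14.05% or less.

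The split differed from that of Nfu_g_1_014206, a gene outside the set that also differed widely between libraries of 1 group. It was above 30 CPM in 7 of the 13 high and in 4 of the 7 low libraries, so all 4 combinations of the 2 splits occurred.

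Most of the members' variation lay within groups of the same age and treatment. The standard deviation of L within groups had a median of 0.804 over members and of 0.162 over all genes of at least 1 CPM. Both groups of 9 weeks and DMSO at 27 weeks held libraries of both classes. Members must part these classes, so a large spread within such groups follows from the rule. That spread enters every comparison over all 20 libraries, so the share of members called is not a like comparison with that of all genes. The 4 groups accounted for a median of 32.1% of a member's variance, and for 35.8% in all genes. The classes were unevenly spread over the groups, with high libraries making up 5 of 10 at 9 weeks and 8 of 10 at 27 weeks. Comparisons between labelled groups were tested with edgeR over all 19452 genes with enough counts, which included all 200 members, with a Benjamini-Hochberg adjusted p below 0.05 as the threshold. The members share 1 pattern over the same libraries, so their number is no count of independent results.

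With age in rotenone fish, 17 of 200 members rose, 8.5%, and 0 fell, where among all genes tested 31.1% were called, 12.9% as higher and 18.2% as lower (edgeR). The share of members called was below that of all genes, but the rule raised the members' spread at 9 weeks, where both classes occurred. All 200 members had a positive log2 fold change, with a median of 0.92 against 0.01 over all genes, and 90 exceeded 1, but the median standard error of a member was 0.56. The 17 rose by 1.02 to 2.61 on the log2 scale (edgeR adjusted p between 0.0152 and 0.0499). Of these, 16 had no overlap between the ages, as did 55 of the 200 members, against 11.7% of all genes of at least 1 CPM in the same direction. All 5 rotenone libraries of 27 weeks and 3 of the 5 of 9 weeks were high, so the direction of these differences follows in part from the split that chose the members. The rule also set the 2 low libraries of 9 weeks below all those of 27 weeks in every member. Only the 3 high ones were free to overlap, so 55 of 200 is not a like comparison with 11.7%.

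The called member with the lowest adjusted p was Nfu_g_1_015452. Its mean in the high libraries, 2.47 CPM, was the lowest of all members. The rotenone libraries of 9 weeks held only 7, 16, 7, 17 and 33 counts of it. Its levels in rotenone fish were 0.307, 0.776, 0.290, 0.729 and 1.42 CPM at 9 weeks. At 27 weeks they were 5.05, 2.53, 3.50, 3.47 and 2.88 CPM, without overlap. The log2 fold change was 2.29 ± 0.68 (SE), with an edgeR adjusted p of 0.0152. Here the 3 high libraries of 9 weeks were themselves below all libraries of 27 weeks, so the ages also lay apart among high libraries alone. The member was picked by its p in this same comparison, so that separation is a description. In DMSO fish the levels were 1.84, 0.473, 0.298, 0.317 and 1.29 CPM at 9 weeks, and 0.138, 4.09, 2.36, 0.360 and 2.15 CPM at 27 weeks. Over all DMSO libraries the ages overlapped, and the log2 fold change of 1.08 ± 0.67 missed the threshold (edgeR adjusted p = 0.261). Among high DMSO libraries alone, 2 at 9 weeks and 3 at 27 weeks, the ages lay apart too, but narrowly. The highest level of the younger fish was then 1.84 CPM (43 counts), below the lowest of the older ones, 2.15 CPM (50 counts). Whether the treatments differ in this was not tested.

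The 7 low libraries stand apart in this set, and values without them are given too. They were left out by the level of Nfu_g_1_020841, the value that chose the members, so counts from that fit are descriptions and support no call. It held 2 and 3 libraries at 9 weeks and 3 and 5 at 27 weeks for DMSO and rotenone. There 44 members rose with age in rotenone and 0 fell, 16 of the 17 among them, and 27.3% of all genes were called. The median log2 fold change of members was 0.44, with 179 of 200 positive, under that of all libraries. The low rotenone libraries were all of 9 weeks, so a smaller median without them follows from the rule. The number called was sensitive to single libraries: it was 2 without rotenone replicate 1 or 3 of 9 weeks, the low libraries of that group, 6 without replicate 4, and 34 without replicate 5. It was 3 without rotenone replicate 1 of 27 weeks and 6 to 11 without any other library of that group.

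With age in DMSO fish 0 members were called, where 23.5% of all genes were (edgeR; 2 members had an unadjusted p below 0.05, and DESeq2 called 0). In 198 of 200 members the log2 fold change was positive, with a median of 0.59 and a range of -0.43 to 1.55, and the median standard error was 0.56. High DMSO libraries numbered 2 at 9 weeks and 3 at 27 weeks, so this direction follows in part from the split that chose the members. Both ages held both classes, so by the rule no member could part the ages, and the spread within them was raised. The 0 called is therefore no measure of whether members change with age in DMSO. DMSO replicate 1 of 9 weeks, a high library, weighed on the number called and the median: without it 10 members rose and the median was 1.14. DMSO replicate 2 of 27 weeks weighed the other way: without it 0 members were called and the median was 0.23, with 163 positive. Without DMSO replicate 4 of 27 weeks 1 member rose. Without the low libraries the median was 0.28, with 180 positive.

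Between rotenone and DMSO at 27 weeks 0 members were called, against 0.391% of all genes (edgeR; 1 member had an unadjusted p below 0.05, and DESeq2 called 0). All 200 had a positive log2 fold change, with a median of 0.60, from 0.22 to 1.30. DMSO held 2 low libraries at this age and rotenone none, so the direction of these differences follows in part from the split that chose the members. Without the low libraries the median was 0.08 and 143 members were positive, a smaller lean to rotenone than with them. By the rule every member is lower in the low libraries, so a smaller lean without them follows from the choice of members. Single DMSO libraries of 27 weeks moved the median as well, to 0.964 without replicate 2, where 25 members had an unadjusted p below 0.05 and 0 were called. It was 0.397 and 0.385 without replicates 1 and 4, the low ones, where a fall follows largely from the rule too.

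At 9 weeks 0 members were called between rotenone and DMSO, against 0.0257% of all genes (edgeR; 0 members had an unadjusted p below 0.05, and DESeq2 called 0). With all libraries, both groups held both classes, so by the rule no member could part the treatments. The 0 called is therefore no like comparison with all genes. The median log2 difference was 0.22, with 135 of 200 positive. Without the low libraries it was -0.08, with 86 positive, and 28 members had an unadjusted p below 0.05. Single libraries of 9 weeks decided its size and sign, and whether it rose or fell without one follows largely from the rule. Without DMSO replicate 1 the median was 0.727, with 191 positive and 43 members at an unadjusted p below 0.05. Without rotenone replicate 5 it was -0.03, with 92 positive. It lay between 0.044 and 0.082 when rotenone replicate 2 or DMSO replicate 2, 3 or 4 was left out, and between 0.35 and 0.434 without DMSO replicate 5 or rotenone replicate 1 or 3. The number called was 0 in all of these fits, and no direction is given for rotenone at 9 weeks.

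When the rotenone effects at 27 and 9 weeks were subtracted, 0 members were called, against 0.0206% of all genes (edgeR; 0 members had an unadjusted p below 0.05, and DESeq2 called 0). The median of this difference was 0.34, with 165 of 200 positive and a median standard error of 0.79. It turned to -0.155, with 71 positive, without DMSO replicate 1 of 9 weeks. It was 0.695 without DMSO replicate 2 of 27 weeks, 0.641 without rotenone replicate 5 of 9 weeks, and 0.522 to 0.558 when rotenone replicate 2 or DMSO replicate 2 or 4 of 9 weeks was left out. Without DMSO replicate 1 or 4 of 27 weeks, or DMSO replicate 5 or rotenone replicate 1 or 3 of 9 weeks, it was 0.135 to 0.224. The number called was 0 in each, and no direction is given. Comparisons at the same age or treatment share libraries, so their medians are not independent of each other.

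**Figure D5:**
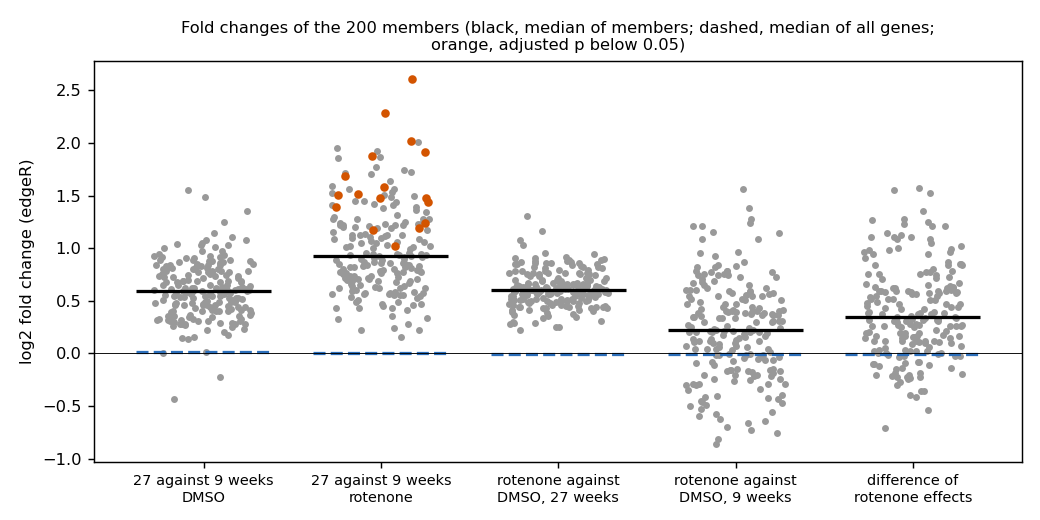
Log2 fold changes (edgeR) of the 200 members in 5 comparisons, 1 point a member; orange points passed at an adjusted p below 0.05, black lines are medians of members and dashed lines medians of all genes tested. For age and for rotenone at 27 weeks 198 or more of the 200 members lie above 0, and 17 are called, all for age in rotenone. High libraries were unevenly spread over the groups, so this lean follows in part from the rule that chose the members.

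Nfu_g_1_020841 itself was called in none of the 5 comparisons. Its mean was 51.05 ± 67.3 CPM in DMSO and 60.2 ± 54.9 CPM in rotenone at 9 weeks, and 95.2 ± 85.3 CPM in DMSO and 171 ± 50.05 CPM in rotenone at 27 weeks (SD, n = 5 each). The log2 fold change with age was 0.88 ± 1.00 in DMSO and 1.4997 ± 1.01 in rotenone (SE; edgeR adjusted p = 0.564 and 0.272). For rotenone it was 0.86 ± 0.99 at 27 weeks and 0.24 ± 1.00 at 9 weeks (edgeR adjusted p = 0.706 and 0.999). The spread between libraries of 1 group was as large as or larger than the mean in DMSO at 9 weeks, and close to it in DMSO at 27 weeks and rotenone at 9 weeks. Rotenone at 27 weeks, without a low library, had the smallest spread relative to its mean.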

How the data were processed

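RNA of male killifish brains was sequenced in 20 libraries, 5 per group; groups come from the age and perturbation labels, and replicate numbers, given in accession order, pair no libraries. The kit was TruSeq RNA version 2, per the labels' protocols. Tools named in the submitters' processing notes are STAR 2.4.1d, featureCounts 1.4.6-p4 and bcl2fastq 1.8.4. Build, annotation and strand setting: not given in the sources used here. Hence overlapping, antisense or near-identical genes could not be told apart. The authors deposited whole-number counts per gene and an RPKM table. The deposited RPKM values were recovered (99.97% within 0.0011) with library totals recycled down the columns and 5.63% with own totals, so RPKM served only for gene lengths, for levels per length recomputed with own totals, and as an alternative.

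CPM divides by the column sum. Pairs of libraries within groups differed beyond sampling noise (lowest chi-square per degree of freedom 7.80 over 40 pairs). Tests on the counts used edgeR 4.0.16 (R 4.3.3; filterByExpr, TMM factors 0.980 to 1.02, robust quasi-likelihood fit with 1 mean per group over 20 libraries); the SE is that implied by the test. The fit was tested on simulated data. DESeq2 1.42.0, other scalings, no filter, 2 groups only, and leaving out libraries were alternatives. Named genes are Nfu_g_1_020841, the 2 members with the largest difference, the 2 with the widest interval, the most abundant, those at the limit of 200 and, per comparison, the called member with the lowest adjusted p in each direction; others are named as chosen after seeing values. Members, lists and tests were chosen with earlier results of these data known. Cell type marker lists needed gene names and were not used.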

Additional observations from a re-analysis of the deposited data

Results flagged for a closer look

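In 56 groups of 5 values, 40 of named genes and 16 of library measures, the farthest library was set against its neighbour. In 4 of them the gap exceeded 0.71 of the range, where chance gives about 1 in 20 groups, or 2.8, among independent normal values. Most named genes varied together over the same libraries, so their groups are not independent and this number is no yardstick for them. Of the 4, 3 belonged to Nfu_g_1_016549, which was named for an extreme difference between libraries. It stood at 64.6 CPM in DMSO replicate 1 of 9 weeks against 12.98 CPM in the nearest library of the group. In rotenone replicate 4 of 9 weeks it stood at 68.5 CPM against 20.5 CPM, and in rotenone replicate 1 of 27 weeks at 71.3 CPM against 22.6 CPM. DMSO replicate 4 of 27 weeks, a low library, had 21427 genes with at least 1 count, against 21600 in the nearest library of its group.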

How the results depend on the processing

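The members called for age in rotenone numbered 17, and 10 without a filter on low counts, 44 without the 7 low libraries, 54 with the 2 groups alone in the fit and 33 by DESeq2, and 2 to 34 without 1 library. With library totals or RLE size factors in place of TMM the number was 17. For age in DMSO it was 0, and 0 to 10 without 1 library. For rotenone at either age and for the difference of effects it was 0 in all alternatives run. The members' median for rotenone at 9 weeks ran from -0.03 to 0.727 without 1 library, and that for the difference of effects from -0.155 to 0.695, so both changed sign. At 9 weeks the median rose without a high DMSO or a low rotenone library and fell without a low DMSO or a high rotenone one. By the rule every member is lower in the low libraries, so the direction of these moves follows largely from it. What else moved the medians was not tested. For Nfu_g_1_020841, never called, the log2 difference between rotenone and DMSO at 9 weeks turned from 0.24 to -0.29 without the low libraries, and to -0.04, -0.04 and -0.05 without DMSO replicate 2, 3 or 4 and -0.04 and -0.23 without rotenone replicate 2 or 5, a range of -0.23 to 1.30 over the fits without 1 library. The difference of effects turned from 0.62 to -0.44 without DMSO replicate 1 of 9 weeks, a range of -0.44 to 1.12. Selection kept 184 and 175 of 200 members with pseudocounts of 0.5 and 0.1, 161 with a mean of at least 5 CPM, 159 with the deposited RPKM, 198 with TMM scaling and 200 with limits of 20 or 50 CPM. No paired analysis was possible because the labels give no replicate numbers shared between groups.

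Precision was set by the spread between 5 libraries per group: the median standard error of a member was 0.56 on the log2 scale for age in rotenone. The split and age are partly confounded, since 8 of 10 libraries of 27 weeks and 5 of 10 of 9 weeks were high.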
